A study of Mus musculus with 12 samples.

Results

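The ribosomal protein genes of the cytosolic ribosome were described in 2 kinds of cultured mouse cell, airway smooth muscle cells (SMCs) and PDGFR-β+ cells of the lung, that had received either a scrambled control RNA (Scr) or a small interfering RNA against Klf4 (siKlf4). Members were the genes with names that start with Rpl or Rps and a digit, and Rplp0, Rplp1, Rplp2 and Rpsa, if their mean reached 1 TPM in either cell type. Names with -ps, the mark of a pseudogene, and the Rps6k kinases were left out. Of 52636 genes, 92 had such a name and 88 passed the minimum, 52 of the large and 36 of the small subunit. Of the other 4, Rpl3l and Rpl10l were listed at 0 in both cell types, and Rps3a2 and Rps12l1 stayed under 1 TPM. Of the 88 members, 77 carry a core subunit name and 11 a paralogue or other name, such as Rpl22l1 or Rps19bp1. All 88 were tested in both cell types.

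Bulk RNA-seq was done on 12 libraries, 3 in each of 4 groups. The labels give the SMCs as the commercial tracheal cell line from CellBiologics (C57BL/6, trachea) and the other cells as lung PDGFR-β+ cells of C57BL/6 mice 12 weeks old, and the genotype as WT with Scr and Klf4 KD with siKlf4. Per the study's methods, the PDGFR-β+ cells were sorted as Zs+ cells from tamoxifen-induced Pdgfrb-CreERT2, ROSA26R(Zs/+) mice, so the label marks cells by their use of Pdgfrb at induction. Cells received 50 nM RNA for 6 h and were cultured for 72 h. All SMC libraries come from the same commercial source, and separate donors are not given for them. The levels are transcripts per 1000000 (TPM), a measure corrected for transcript length that sums to 1000000 in every library. In bulk samples, a change in the mix of cells and a change in RNA per cell cannot be told apart.

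The cytosolic ribosome joins a large and a small subunit, each made of ribosomal RNA and many different proteins that are needed in about equal numbers. Genes for these proteins are among the most strongly transcribed of a growing cell. Most of their mRNAs begin with a C and a run of pyrimidines, the 5' terminal oligopyrimidine (TOP) motif, through which their translation responds to the kinase mTORC1. They are built into subunits in the nucleolus by ribosome biogenesis factors. In cells that grow or make much matrix, as fibroblasts and smooth muscle cells do, demand for ribosomes is high.

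The pyrimidine run is shown for some of the members named below, from RefSeq promoter sequence of GRCm38.p6. Each line is a window of 30 bases around the annotated start, written 5' to 3' on the strand of the gene, with the run of a C and at least 5 further C or T letters in capitals. Rps9 and Rpl10a fell in SMCs, Rps24, Rps27 and Rps12 rose in PDGFR-β+ cells, and Rpl22l1 fell in both, as described below.
Rps9, chr7:3704028-3704057, plus strand: cgccttgtCTCTCTTTgtctcgggcctgag
Rpl10a, chr17:28328454-28328483, plus strand: tggtggcgCCCCCCCagcggccgcaaactg
Rps24, chr14:24490668-24490697, plus strand: gctggggtCCTTCCTTgcgcgttgatatga
Rps27, chr3:90213629-90213658, minus strand: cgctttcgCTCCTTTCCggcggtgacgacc
Rps12, chr10:23787180-23787209, minus strand: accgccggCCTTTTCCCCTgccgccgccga
Rpl22l1, chr3:28805503-28805532, plus strand: agcccgttCTCTTCCCacggctgcagctca
The run began 5 bases before the annotated start in Rps9, 9 before it in Rpl10a and 2 before it in Rps24 and Rps27. It lay 8 bases after the annotated start in Rps12 and 3 after it in Rpl22l1. In Rpl10a, Rps12 and Rpl22l1 the run thus did not cover the annotated start. Promoter sequence was found for 65 members, 57 of them core. Such a run lay within 25 bases of the annotated start in 63.2% of the 57 core members and in 34.9% of 27025 genes. No such run lay in that window in Rplp0, Rpl7l1, Rpl22 or Rpl36al.

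Klf4 was lower with siKlf4 in every library. In SMCs it stood at 89.6, 96.3 and 95.0 TPM in the Scr libraries against 26.5, 16.3 and 18.8 TPM in the siKlf4 ones. The PDGFR-β+ libraries had 144, 146 and 134 TPM in the Scr libraries against 12.3, 13.8 and 12.8 TPM in the siKlf4 ones. The 6 smooth muscle markers Acta2, Tagln, Cnn1, Myh11, Des and Myocd summed to 1385 to 2173 TPM in Scr-treated and 3239 to 3986 TPM in siKlf4-treated SMCs, and 4 of the 5 tested rose. In PDGFR-β+ cells they summed to 5440 to 6279 TPM with Scr and 4543 to 4843 TPM with siKlf4, where 1 rose and 3 fell, so these markers do not set the SMCs apart from the PDGFR-β+ cells. The 3 markers of PDGFR-β+ cells, Pdgfrb, Pdgfra and Cspg4, summed to 577 to 729 TPM in Scr-treated SMCs. In siKlf4-treated SMCs they summed to 493 to 622 TPM, and 1 fell. In PDGFR-β+ cells they summed to 609 to 679 TPM with Scr and 479 to 602 TPM with siKlf4, without overlap, and 2 fell. These sums hide unlike levels. With Scr, Pdgfrb had means of 214 TPM in SMCs and 447 TPM in PDGFR-β+ cells, Pdgfra 417 and 169, and Cspg4 5.29 and 26.9. With siKlf4, the PDGFR-β+ cells had means of 339 TPM for Pdgfrb, 180 for Pdgfra and 6.00 for Cspg4. The 5 macrophage markers summed to 28.6 to 29.9 TPM in Scr-treated and 18.7 to 22.8 TPM in siKlf4-treated PDGFR-β+ cells, and to at most 7.19 TPM in SMCs. Of the 3 tested in PDGFR-β+ cells, 2 fell. Means there with Scr and siKlf4 were 19.0 and 11.3 TPM for Lyz2, 2.28 and 0.775 TPM for Csf1r, and 7.56 and 8.77 TPM for Cd68. Ptprc had 0.244 and 0.214 TPM, and Adgre1 had 0.0349 and 0 TPM. The 4 endothelial markers summed to 1.28 to 2.51 TPM in Scr-treated and 3.37 to 3.87 TPM in siKlf4-treated SMCs, and to 14.05 to 18.4 TPM in PDGFR-β+ cells. Of these, Kdr had means of 0.663 TPM with Scr and 2.88 TPM with siKlf4 in SMCs. There the means of Cdh5 and Tek were lower with siKlf4, and that of Pecam1 was 0.256 and 0.299 TPM. In PDGFR-β+ cells the means of Kdr were 15.3 and 12.5 TPM, and those of Tek 1.33 and 2.55 TPM. Those of Pecam1 were 0.131 and 0.153 TPM, and those of Cdh5 0.0332 and 0 TPM. Of the 2 endothelial markers tested there, Kdr and Tek, 1 was called higher and none lower. The 5 epithelial markers stayed under 1 TPM in every library. The part of these markers in the results below was not tested. In the SMC table, the columns of 1 Scr and 1 siKlf4 library carry no replicate number, and these are given first below.

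In SMCs, the 88 members took a smaller part of total TPM with siKlf4. Their summed TPM was 8.24%, 8.25% and 8.10% of the total in the Scr libraries and 7.18%, 7.08% and 7.06% in the siKlf4 libraries. All 3 siKlf4 libraries were below all 3 Scr libraries. The means were 8.20% ± 0.0867 and 7.11% ± 0.0669 (SD, n = 3), a change of -13.3%. With 3 libraries against 3 an exact permutation test cannot go below p = 0.1, and no test was made of these sums. In PDGFR-β+ cells the members summed to 7.62%, 8.27% and 7.30% with Scr and to 8.39%, 8.25% and 8.28% with siKlf4. The Scr libraries were more spread, and the highest of them lay within the range of the siKlf4 libraries. The means were 7.73% ± 0.497 and 8.31% ± 0.0762 (SD, n = 3), a change of 7.49%, which is about the spread between libraries.

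Other transcripts moved with the sum in SMCs. Gm42418, a gene model known to overlap ribosomal RNA sequence, held 1.80%, 2.55% and 3.23% of the total with Scr and 4.44%, 5.14% and 5.77% with siKlf4. Gm42418 and Gm23935 together had means of 3.54% ± 1.14 with Scr and 6.89% ± 1.14 with siKlf4 (SD, n = 3). Mitochondrially encoded genes held 4.38%, 3.62% and 3.67% with Scr and 2.42%, 2.76% and 2.34% with siKlf4. With Gm42418 and Gm23935 left out of the total, the members held 8.44%, 8.55% and 8.49% with Scr and 7.62%, 7.61% and 7.67% with siKlf4, a change of -10.2% without overlap. With the mitochondrially encoded genes and Gm42418 left out, the change was -12.1%. In PDGFR-β+ cells Gm42418 held 3.48%, 4.96% and 6.33% with Scr and 3.597%, 4.89% and 6.25% with siKlf4, and the groups overlapped.

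**Figure D1:**
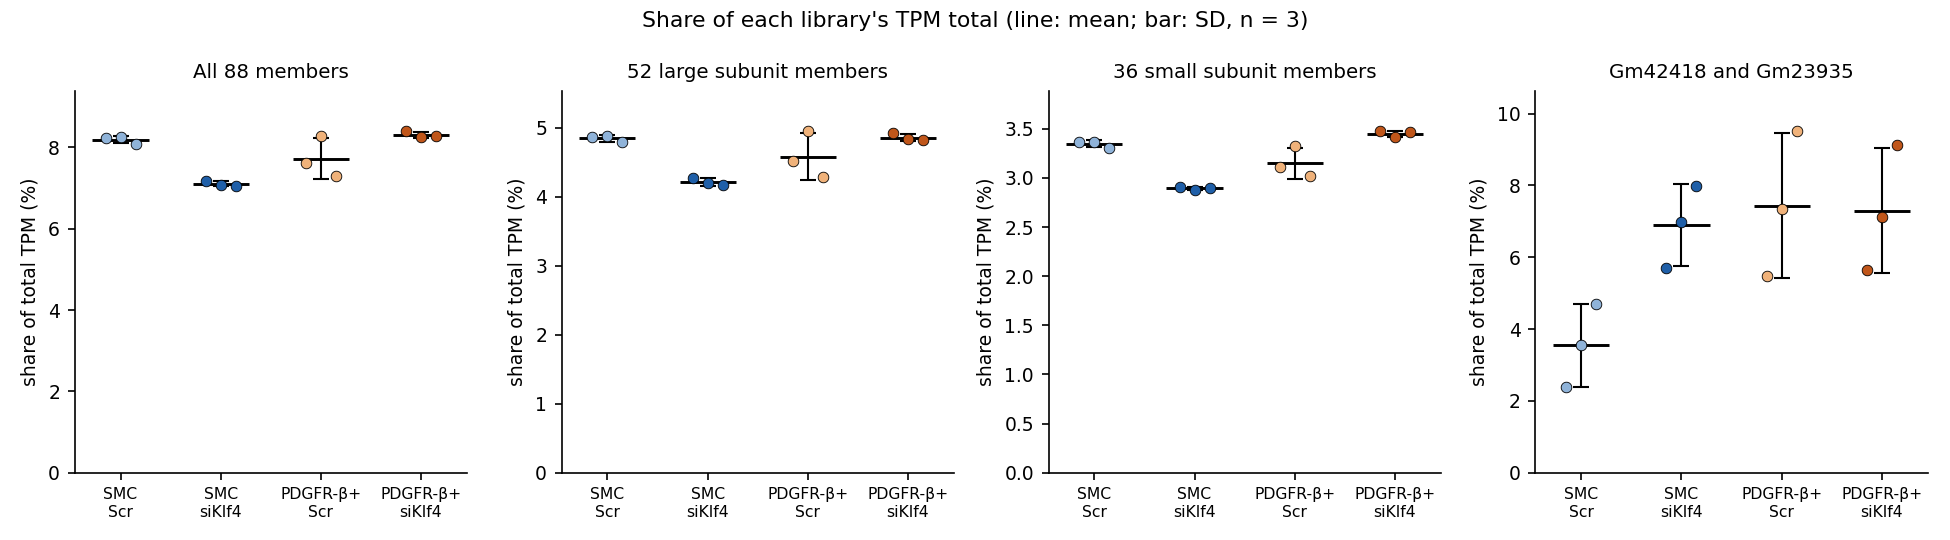
Share of each library's TPM total, in percent, for all 88 members, the 52 large subunit members, the 36 small subunit members, and Gm42418 with Gm23935. Each point is a library, the line is the mean and the bar the SD (n = 3). The 3 SMC siKlf4 libraries lie between 7.06% and 7.18% for all members, below the SMC Scr libraries, and in the same cells the mean share of the 2 other transcripts is 3.54% with Scr and 6.89% with siKlf4.

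Gene by gene, the change in SMCs was small and spread over most members. The log2 fold change of TPM + 1 was negative for 81 of the 88 members, with a median of -0.18, while the median over all 13709 genes tested was 0.02. Each siKlf4 library had 78 or 79 of the 88 members below their Scr mean. By limma, with Benjamini-Hochberg adjustment over all genes, 26 members were lower and 1 was higher. Over all genes tested, 12.9% were lower and 15.6% higher. The siKlf4 values lay below all Scr values in 51 members and above them in 1, against 21.5% and 25.6% of all genes. The count of 26 depends on the libraries and the fit. It was 7 without siKlf4 replicate 2, 7 without siKlf4 replicate 3, 13 without Scr replicate 2 and 17 without Scr replicate 3. It was 40 in the 4 numbered libraries alone and 50 with a term for the naming of the libraries.

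The members with the clearest falls in SMCs were Rpl10a, Rpl17, Rpl3, Rpl22l1 and Rps9, each past the threshold in every alternative fit and without any single library. Rpl10a, a protein of the L1 stalk, which the tRNA passes as it leaves the ribosome, had 962, 929 and 934 TPM in the Scr libraries against 689, 688 and 678 TPM in the siKlf4 ones. The groups were far apart, with little spread within either. Rpl10a fell by 0.46 ± 0.05 (SE) on the log2 scale (limma, adjusted p = 0.00221). Rpl3, which lies next to the peptidyl transferase centre, had 1737, 1582 and 1545 TPM in the Scr libraries against 1251, 1152 and 1157 TPM in the siKlf4 ones. In both groups the library without a number was the highest, and the groups did not overlap. Rpl3 fell by 0.45 ± 0.07 (adjusted p = 0.00571). In GRCm38 (GENCODE M21), Rpl3 lies on the minus strand at chr15:80077791-80091868 and Rpl10a on the plus strand at chr17:28328471-28331033.

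Rps9, an early-binding protein of the small subunit, had 1329, 1326 and 1244 TPM in the Scr libraries against 938, 975 and 1000.4 TPM in the siKlf4 ones. All siKlf4 libraries lay below the lowest Scr library, and Rps9 fell by 0.42 ± 0.06 (adjusted p = 0.00423). Rpl17, which lines the exit of the nascent chain tunnel, had 1511, 1301 and 1318 TPM in the Scr libraries against 1047, 971 and 970 TPM in the siKlf4 ones. Here too the groups did not overlap, and Rpl17 fell by 0.46 ± 0.08 (adjusted p = 0.00676).

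The largest fall by size, that of Rpl36a, was less secure. Its TPM was 628, 432 and 431 with Scr and 331, 339 and 350 with siKlf4, so the Scr library without a number stood far above the other two. Rpl36a fell by 0.53 ± 0.15 (adjusted p = 0.0348), and the call was lost without any 1 of the 3 siKlf4 libraries (adjusted p = 0.0812 to 0.0927 by limma). Rplp0, the base of the acidic stalk that recruits elongation factors, fell by 0.32 ± 0.06 (adjusted p = 0.0118, and 0.056 without siKlf4 replicate 2). The stalk proteins that bind it did not pass, with a log2 fold change of -0.22 for Rplp1 (adjusted p = 0.212) and -0.07 for Rplp2 (adjusted p = 0.579). Rpl5 and Rpl11, which carry the 5S RNA and can bind Mdm2, had log2 fold changes of -0.16 (adjusted p = 0.124) and -0.19 (adjusted p = 0.0534). Rps6, the substrate of the S6 kinases, had -0.22 (adjusted p = 0.0709), and Rpsa, which is also known as a laminin-binding protein, had -0.0042 (adjusted p = 0.964). Rps27a, made as a fusion with ubiquitin, fell by 0.18 with an adjusted p just under the threshold, and the call was lost without any 1 of the 6 libraries (adjusted p = 0.0524 to 0.137 by limma) and in 7 of 13 other alternatives.

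In PDGFR-β+ cells the members moved both ways, and the direction of the whole set depends on the scaling. In the TPM as deposited, 15 of the 88 members were higher with siKlf4 and 3 lower, while 25.3% of all genes tested were higher and 15.3% lower. The median log2 fold change was 0.12, against 0.10 over all genes. With median-ratio scaling 6 members were higher and 10 lower, and with quantile normalization 33 were higher and 3 lower. Groups did not overlap for 29 members with siKlf4 higher and 7 with siKlf4 lower, against 33.9% and 19.8% of all genes. The count of 15 became 26 without Scr replicate 2, 6 and 8 without Scr replicates 1 and 3, 5 and 7 without siKlf4 replicates 2 and 3, and 11 without siKlf4 replicate 1.

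Rps24 rose most in PDGFR-β+ cells. This gene of the small subunit is mutated in some families with Diamond-Blackfan anaemia. It had 1075, 1178 and 1128 TPM in the Scr libraries against 1533, 1776 and 1828 TPM in the siKlf4 ones. The lowest siKlf4 library was well above the highest Scr library, and Rps24 rose by 0.60 ± 0.09 (SE) on the log2 scale (limma, adjusted p = 0.00147). Rps27, a zinc-finger protein of the small subunit, had 1268, 1313 and 1226 TPM in the Scr libraries against 1762, 1639 and 1694 TPM in the siKlf4 ones. It rose by 0.42 ± 0.06 (adjusted p = 0.00205), without overlap.

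Rps12, of the small subunit, also rose. It had 1011, 1111 and 949 TPM in the Scr libraries against 1389, 1303 and 1352 TPM in the siKlf4 ones. The rise was 0.40 ± 0.08 (adjusted p = 0.00546). All siKlf4 libraries were above all Scr libraries. Rps24, Rps27 and Rps12 passed the threshold in every alternative fit and without any single library. Rpl26, at the tunnel exit, rose by 0.39 ± 0.11 (adjusted p = 0.0224), a call lost without Scr replicate 1 or 3 or siKlf4 replicate 1 or 2 (adjusted p = 0.0642 to 0.0805 by limma). The calls of Rpl22, Rplp2, Rps19 and Rpsa in PDGFR-β+ cells were likewise lost without single libraries and with median-ratio scaling.

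Rpl10 was the core member that fell in PDGFR-β+ cells. It joins the large subunit late, in the cytoplasm, and its gene lies on the plus strand at chrX:74270812-74273135. It had 898, 966 and 922 TPM in the Scr libraries against 714, 751 and 744 TPM in the siKlf4 ones, and all siKlf4 libraries were below all Scr libraries. Rpl10 fell by 0.33 ± 0.06 (limma, adjusted p = 0.00477). In SMCs it had 966, 1078 and 1054 TPM in the Scr libraries against 918, 834 and 871 TPM in the siKlf4 ones, again without overlap. There it fell by 0.24 ± 0.07 (adjusted p = 0.043), a call lost without Scr replicate 2 or 3 or siKlf4 replicate 2 or 3 (adjusted p = 0.112 to 0.149).

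**Figure D2:**
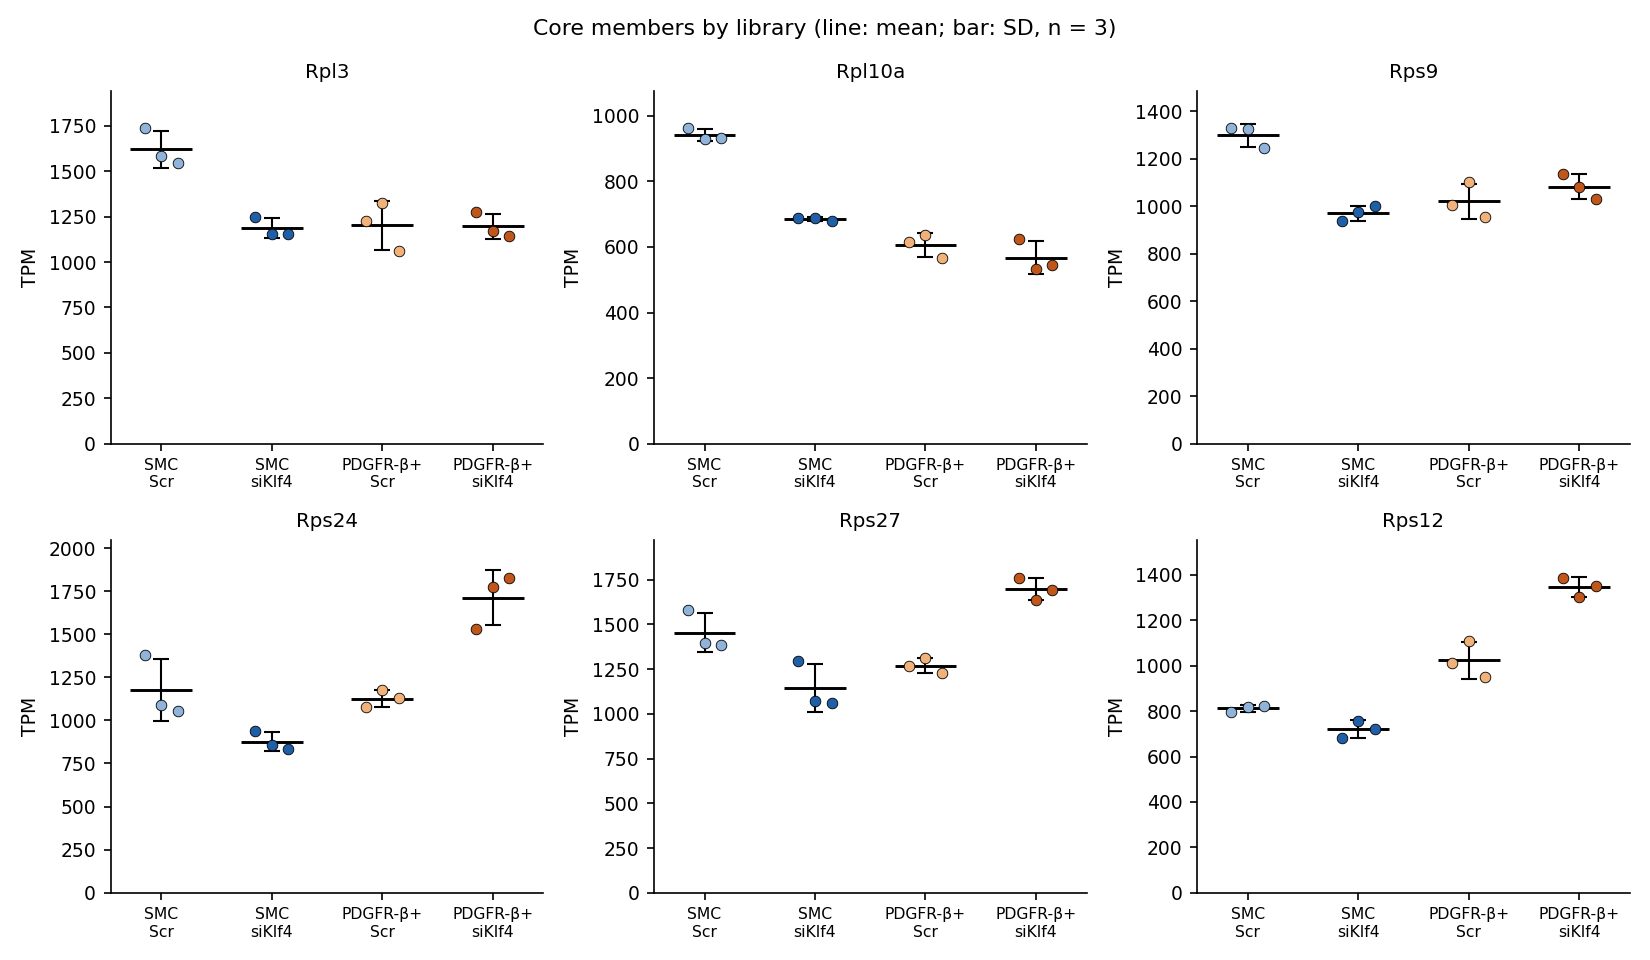
TPM per library of 6 core members on axes that start at 0. Points are libraries, lines means and bars SDs (n = 3). Rpl3, Rpl10a and Rps9 are lower with siKlf4 in SMCs and overlap between the treatments in PDGFR-β+ cells, while Rps24, Rps27 and Rps12 are higher with siKlf4 in PDGFR-β+ cells.

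Many members responded differently to siKlf4 in SMCs and in PDGFR-β+ cells. By the interaction term of limma over the 12 libraries, the log2 fold change in SMCs was below that in PDGFR-β+ cells for 38 members and above it for 1. Of 13032 genes tested, 18.5% were below and 14.5% above. The median difference was -0.32 for the members and -0.08 for all genes. All 38 were core members, 23 of the large and 15 of the small subunit. The count lay between 27 and 45 in every alternative fit, and between 28 and 43 without any single library. The largest differences were those of Rps24, at -1.01 ± 0.15 (SE, adjusted p = 0.000408), and Rps27, at -0.77 ± 0.12 (adjusted p = 0.000619). Rps24 in SMCs had 1380, 1088 and 1057 TPM in the Scr libraries against 939, 856 and 834 TPM in the siKlf4 ones, opposite to its rise in PDGFR-β+ cells. Rps27 in SMCs had 1579, 1395 and 1387 TPM in the Scr libraries against 1297, 1073 and 1059 TPM in the siKlf4 ones. The SMC groups overlapped in neither gene, and both fell, by 0.41 ± 0.11 (adjusted p = 0.0327) and 0.35 ± 0.10 (adjusted p = 0.0381). Those SMC calls were lost in some alternative fits, and without single libraries, which for Rps24 were Scr replicate 2 and siKlf4 replicates 2 and 3 (adjusted p = 0.0557 to 0.104). For Rps27 any library but the siKlf4 library without a number had that effect (adjusted p = 0.064 to 0.125).

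For 3 members, Rps24, Rps27 and Rpl22, a fall was called in SMCs and a rise in PDGFR-β+ cells, and Rpl7l1 was the only member called the other way. Rpl22l1 and Rpl10 were called lower in both. A further 21 members were called lower in SMCs alone, 12 higher in PDGFR-β+ cells alone, and 49 in neither. Over all genes, 12.9% were lower and 15.6% higher in SMCs, and 15.3% lower and 25.3% higher in PDGFR-β+ cells. Joint calls were not counted over all genes. A call in only 1 cell type is not in itself a difference between them. Rpl10a, Rpl3 and Rps9, which fell in SMCs, had log2 fold changes of -0.09, -0.0031 and 0.08 in PDGFR-β+ cells, and their differences passed, at -0.36 ± 0.10 (adjusted p = 0.0154), -0.45 ± 0.12 (adjusted p = 0.0164) and -0.50 ± 0.10 (adjusted p = 0.00217).

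**Figure D3:**
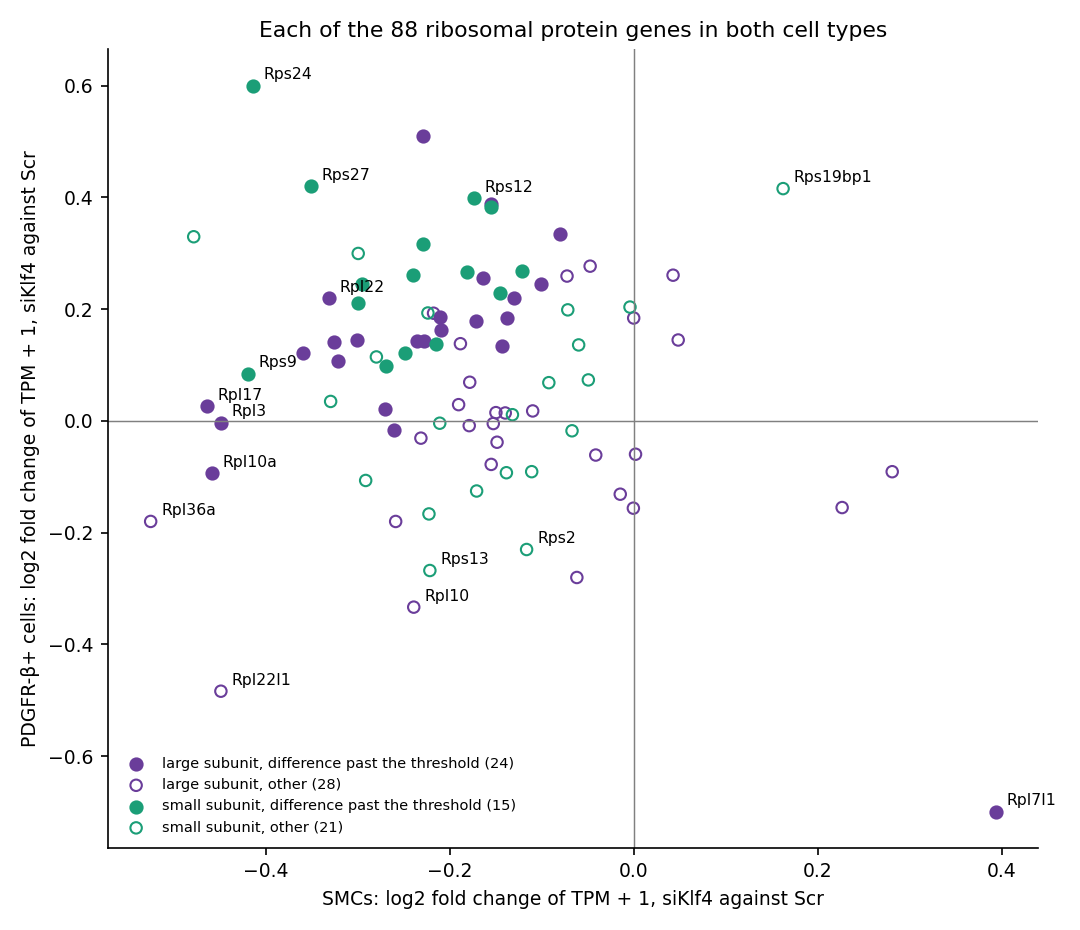
Log2 fold change of TPM + 1, siKlf4 against Scr, in SMCs (horizontal) and PDGFR-β+ cells (vertical) for the 88 members, by subunit. Filled points passed the test of the difference between the cell types. Most members lie left of 0 in SMCs, Rps24 and Rps27 at the upper left, and Rpl7l1 stands alone at the lower right.

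The subunits moved alike in SMCs. The large subunit share of total TPM changed by -13.1% and the small subunit share by -13.6%, both without overlap between the groups. Of the large subunit members 17 were lower and 1 higher of 52, and of the small 9 were lower of 36. Among all genes tested in SMCs, 12.9% were lower and 15.6% higher. The ratio of large to small summed TPM was 1.44, 1.45 and 1.45 with Scr and 1.47, 1.46 and 1.44 with siKlf4, and the groups overlapped. In PDGFR-β+ cells the small subunit share was 3.11%, 3.33% and 3.01% with Scr and 3.47%, 3.42% and 3.46% with siKlf4, a change of 9.58% without overlap. The large subunit share changed by 6.06%, with overlap. The ratio was 1.45, 1.49 and 1.42 with Scr and 1.417, 1.415 and 1.39 with siKlf4. All siKlf4 libraries were lower, though the closest values of the groups were 1.421 and 1.417, and the ratio of the subunit medians overlapped. Called higher in PDGFR-β+ cells were 9 of 36 members with small subunit names and 6 of 52 with large subunit names, beside 25.3% of all genes. Among core members these were 8 of 31 and 6 of 46, and 1 core member, Rpl10, was called lower. No test was made of the ratio.

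Since members are needed in about equal numbers, each was also compared with the median member of its library. In SMCs, 2 members rose and 5 fell with siKlf4 against that median, beside 28.6% of all genes called higher and 7.13% called lower against it. Those that rose were Rpl7l1 and Rps19bp1, and those that fell were Rpl17, Rpl10a, Rpl3, Rpl22l1 and Rps9. The number that fell was 0 without siKlf4 replicate 3, 1 without siKlf4 replicate 2 or Scr replicate 2, and 2 without Scr replicate 3. In PDGFR-β+ cells 5 members rose and 8 fell, beside 17.7% of all genes called higher and 18.2% called lower against the median member. Among the 5 were Rps24, Rps27, Rps12 and Rps19bp1. Among the 8 that fell were Rpl7l1, Rpl22l1, Rpl10, Rps13 and Rps2. Rps13 and Rps2 had not passed against the table total, and fell by 0.35 ± 0.08 (adjusted p = 0.0137) and 0.31 ± 0.08 (adjusted p = 0.0177) against the median member. The number that fell was 4 without Scr replicate 1 or siKlf4 replicate 3, and 5 without Scr replicate 3 or siKlf4 replicate 2. The number that rose was 8 without Scr replicate 2. Rps19bp1 encodes a nucleolar protein that binds the protein of Rps19 and is not a subunit itself. Its level in PDGFR-β+ cells was 35.1, 41.0 and 35.9 TPM in the Scr libraries against 47.9, 54.6 and 47.8 TPM in the siKlf4 ones, without overlap, and rose by 0.42 ± 0.09 against the total (adjusted p = 0.0101).

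Rpl7l1 was the only member for which a rise was called in SMCs and a fall in PDGFR-β+ cells. Its product resembles Rpl7 and is known as a factor in the assembly of the large subunit. In SMCs it had 70.0, 65.9 and 65.5 TPM in the Scr libraries against 91.3, 90.3 and 83.8 TPM in the siKlf4 ones. All siKlf4 libraries were higher, and Rpl7l1 rose by 0.39 ± 0.07 (SE) on the log2 scale (limma, adjusted p = 0.00701). In PDGFR-β+ cells it had 81.0, 83.8 and 72.3 TPM in the Scr libraries against 45.8, 49.98 and 48.9 TPM in the siKlf4 ones. All siKlf4 libraries were lower, and Rpl7l1 fell by 0.70 ± 0.08 (adjusted p = 0.0006). The SMC effect exceeded that in PDGFR-β+ cells by 1.09 ± 0.10 (adjusted p = 2.12e-05), and the 3 calls held in every alternative and without any single library. Rpl7 itself had log2 fold changes of -0.18 (adjusted p = 0.112) and -0.0086 (adjusted p = 0.93). Rpl7l1 was 4.64%, 4.94% and 4.76% of the pair in SMCs with Scr and 6.81%, 7.27% and 6.83% with siKlf4. In PDGFR-β+ cells it was 6.81%, 6.57% and 5.79% with Scr and 3.95%, 3.98% and 4.12% with siKlf4. Rpl7l1 lies on the minus strand at chr17:46773907-46782672 (GRCm38, GENCODE M21).

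Rpl22l1 fell in both cell types. It is a paralogue of Rpl22, and either protein can take the same place in the large subunit. In SMCs it had 277, 279 and 283 TPM in the Scr libraries against 193, 224 and 198 TPM in the siKlf4 ones, and fell by 0.45 ± 0.07 (limma, adjusted p = 0.00565). The PDGFR-β+ cells had 177, 148 and 147 TPM in the Scr libraries against 134, 103 and 102 TPM in the siKlf4 ones, and fell by 0.48 ± 0.13 (adjusted p = 0.0194). The groups overlapped in neither cell type. The call in PDGFR-β+ cells was lost without Scr replicate 1 or siKlf4 replicate 2 or 3 (adjusted p = 0.062 to 0.067).

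Rpl22 went with Rpl22l1 in SMCs alone. It had 204, 176 and 194 TPM in the Scr libraries against 150, 152 and 153 TPM in the siKlf4 ones in SMCs, where it fell by 0.33 ± 0.07 (adjusted p = 0.0149, and 0.0546 and 0.0503 without siKlf4 replicates 2 and 3). The PDGFR-β+ cells had 182, 208 and 183 TPM in the Scr libraries against 218, 227 and 221 TPM in the siKlf4 ones, where it rose by 0.22 ± 0.07 (adjusted p = 0.0466). That rise was lost when any library but Scr replicate 2 was left out. Of the sum of Rpl22 and Rpl22l1, Rpl22l1 made up 57.6%, 61.3% and 59.3% in SMCs with Scr and 56.4%, 59.6% and 56.4% with siKlf4, with overlap. Its part in PDGFR-β+ cells was 49.3%, 41.6% and 44.5% with Scr and 38.0%, 31.2% and 31.5% with siKlf4, lower in every library.

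**Figure D4:**
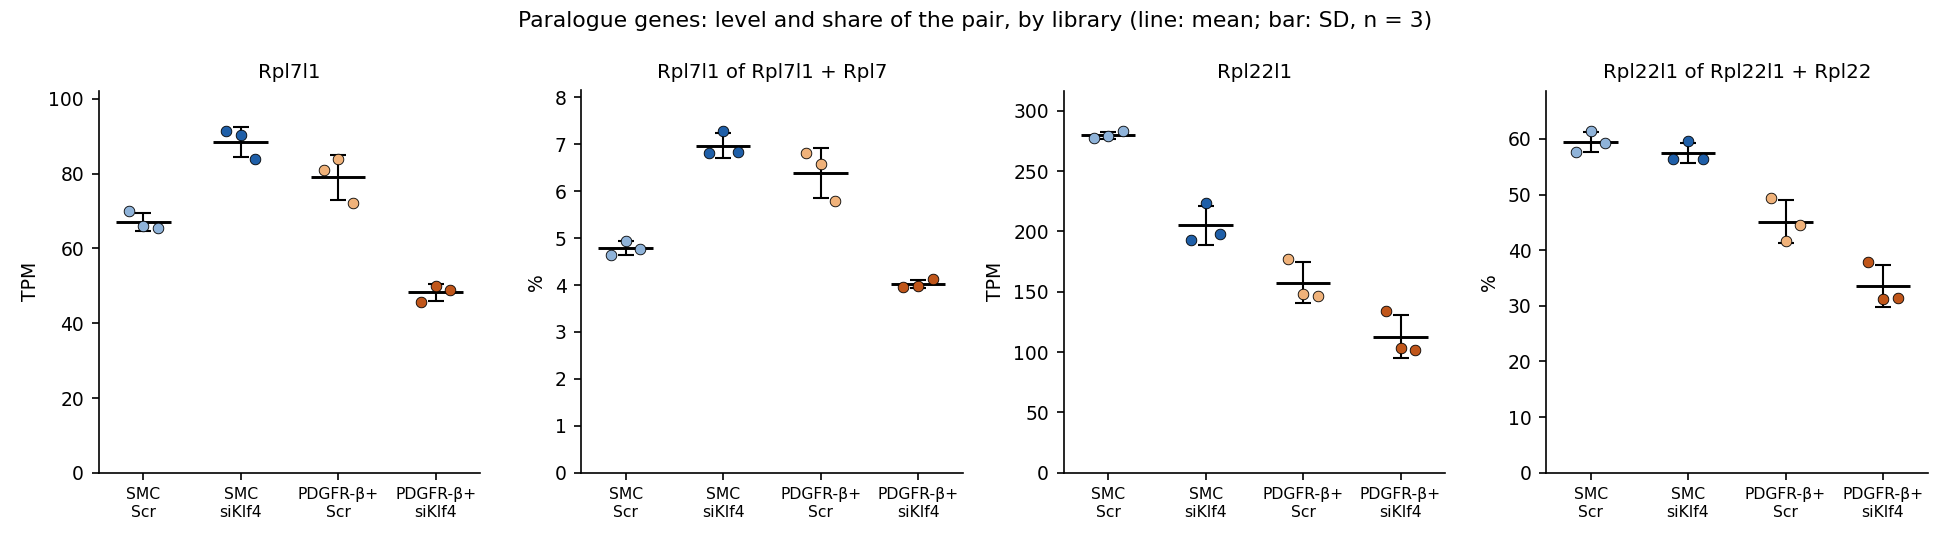
TPM per library of Rpl7l1 and Rpl22l1, and each as a percent of its sum with Rpl7 or Rpl22. Points are libraries, lines means and bars SDs (n = 3), on axes that start at 0. With siKlf4, Rpl7l1 is higher in SMCs but lower in PDGFR-β+ cells, and Rpl22l1 is lower in both, with a smaller part of its pair only in PDGFR-β+ cells.

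None of the other members with a paralogue name passed the test in either cell type. Rpl36al, a paralogue of Rpl36a, had between 243 and 257 TPM in all SMC libraries, and its part of the pair was 27.9%, 37.2% and 36.6% with Scr and 43.2%, 42.0% and 41.1% with siKlf4. That part was higher in all siKlf4 libraries. Rps27l, a p53-responsive paralogue of Rps27, had 402 to 451 TPM in SMCs and 485 to 586 TPM in PDGFR-β+ cells, with log2 fold changes of -0.05 (adjusted p = 0.597) and 0.07 (adjusted p = 0.544). In PDGFR-β+ cells Rps27l was 30.1%, 28.4% and 28.7% of the sum with Rps27 in Scr libraries and 21.6%, 26.4% and 25.3% in siKlf4 libraries, without overlap. Rps4l had between 37.8 and 56.2 TPM in SMCs and between 14.99 and 20.2 TPM in PDGFR-β+ cells. Its core partner Rps4x had between 1477 and 2030 TPM in SMCs and between 1541 and 1724 TPM in PDGFR-β+ cells. Rpl39l, Rpl6l, Rps3a3, Rps27rt and Rpl37rt were the members of lowest level, with means over the 12 libraries of 3.63, 1.27, 3.58, 8.57 and 13.3 TPM. Reads of such near-copies can be shared with the parent gene or with pseudogenes, so these values are uncertain. For Rps4l, Rpl6l, Rps3a3 and Rpl37rt, GENCODE M21 held no protein-coding transcript, although their names lack -ps. Names with -ps, 276 in all, held between 0.0195% and 0.0309% of total TPM.

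Levels of the core members were uneven although the ribosome holds them in about equal numbers. TPM, which is per length, ran in Scr-treated SMCs from 132 for Rps15a to 2821 for Rplp1, with a median of 994. In Scr-treated PDGFR-β+ cells the range was 114 to 2742 TPM between the same genes. The longest coding transcript in GENCODE M21 had 5179 bases for Rps15a and 499 for Rplp1. The median over the coding transcripts of Rps15a was 638.5 bases. The part of the annotated length in these levels was not tested. The acidic stalk genes Rplp1 and Rplp0 had the highest levels of all members, with means over the 12 libraries of 2775 and 2393 TPM, followed by Rpl23a, Rps2 and Rps15 at 2306, 1738 and 1703 TPM. Rplp1 is present in more than a single copy per ribosome, as is Rplp2, which had between 494 and 715 TPM. Across the 77 core members, the Scr levels of the cell types had a Spearman rho of 0.953, a description over genes that share annotation and counting.

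Other genes of translation were set beside the members. Fau and Rack1, which encode ribosomal proteins under other names, passed in neither cell type by limma. Of 14 translation factors and other TOP mRNAs, 5 fell and 1 rose in SMCs, beside 12.9% and 15.6% of all genes. Eef1a1, which brings aminoacyl-tRNA to the ribosome, fell by 0.54 ± 0.09 (adjusted p = 0.00725), and Eef2, which moves the ribosome along the mRNA, by 0.46 ± 0.06 (adjusted p = 0.00327). In PDGFR-β+ cells 4 of the 14 rose and none fell, beside 25.3% and 15.3% of all genes, led by Eif3e, a subunit of initiation factor eIF3, at 0.45 ± 0.07 (adjusted p = 0.00179).

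Ribosome biogenesis genes, which build the subunits, moved opposite to the members in SMCs. Of 42, 18 rose and none fell in SMCs, beside 15.6% and 12.9% of all genes, and the median log2 fold change was 0.26. Nolc1, a nucleolar chaperone, had 41.3, 40.6 and 42.6 TPM in the Scr libraries against 71.2, 59.96 and 61.4 TPM in the siKlf4 ones, and rose by 0.61 ± 0.08 (adjusted p = 0.00335). Nop2, an rRNA methyltransferase, rose by 0.60 ± 0.07 (adjusted p = 0.00214). In PDGFR-β+ cells 5 of the 42 rose and 2 fell, beside 25.3% and 15.3% of all genes, with a median of 0.06. By the interaction term, the SMC effect was the higher for 15 of the 42 and the lower for none, beside 14.5% and 18.5% of all genes. Of 78 mitochondrial ribosomal proteins, which serve the separate ribosome of mitochondria, 10 rose and 1 fell in SMCs and 20 rose and 6 fell in PDGFR-β+ cells. The rises were near the share over all genes in both cell types, and the falls were below it. Their share of total TPM in SMCs was 0.296%, 0.310% and 0.298% with Scr and 0.321%, 0.329% and 0.328% with siKlf4, without overlap. In PDGFR-β+ cells the groups overlapped.

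In the lists that follow, the counts stand beside 15.6% of all genes higher and 12.9% lower in SMCs, and in PDGFR-β+ cells 25.3% higher and 15.3% lower. Of 17 tested genes of Myc and the mTORC1 pathway, 4 rose and 1 fell in SMCs and 5 rose and 1 fell in PDGFR-β+ cells. Eif4ebp2, a repressor of cap-dependent translation that mTORC1 inhibits, had 95.1, 94.1 and 91.5 TPM in Scr-treated SMCs against 73.2, 59.1 and 58.8 TPM in siKlf4-treated ones. In PDGFR-β+ cells it had 82.2, 78.7 and 71.2 TPM in the Scr libraries against 19.4, 16.6 and 16.7 TPM in the siKlf4 ones. It fell in both, by 0.55 ± 0.10 (adjusted p = 0.00725) and by 2.08 ± 0.09 (adjusted p = 1.02e-05). Of 12 p53 targets, 3 rose and 1 fell in SMCs and 6 rose and 1 fell in PDGFR-β+ cells. Of the 13 mitochondrially encoded protein genes, 9 fell and none rose in SMCs, and 3 rose and none fell in PDGFR-β+ cells.

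**Figure D5:**
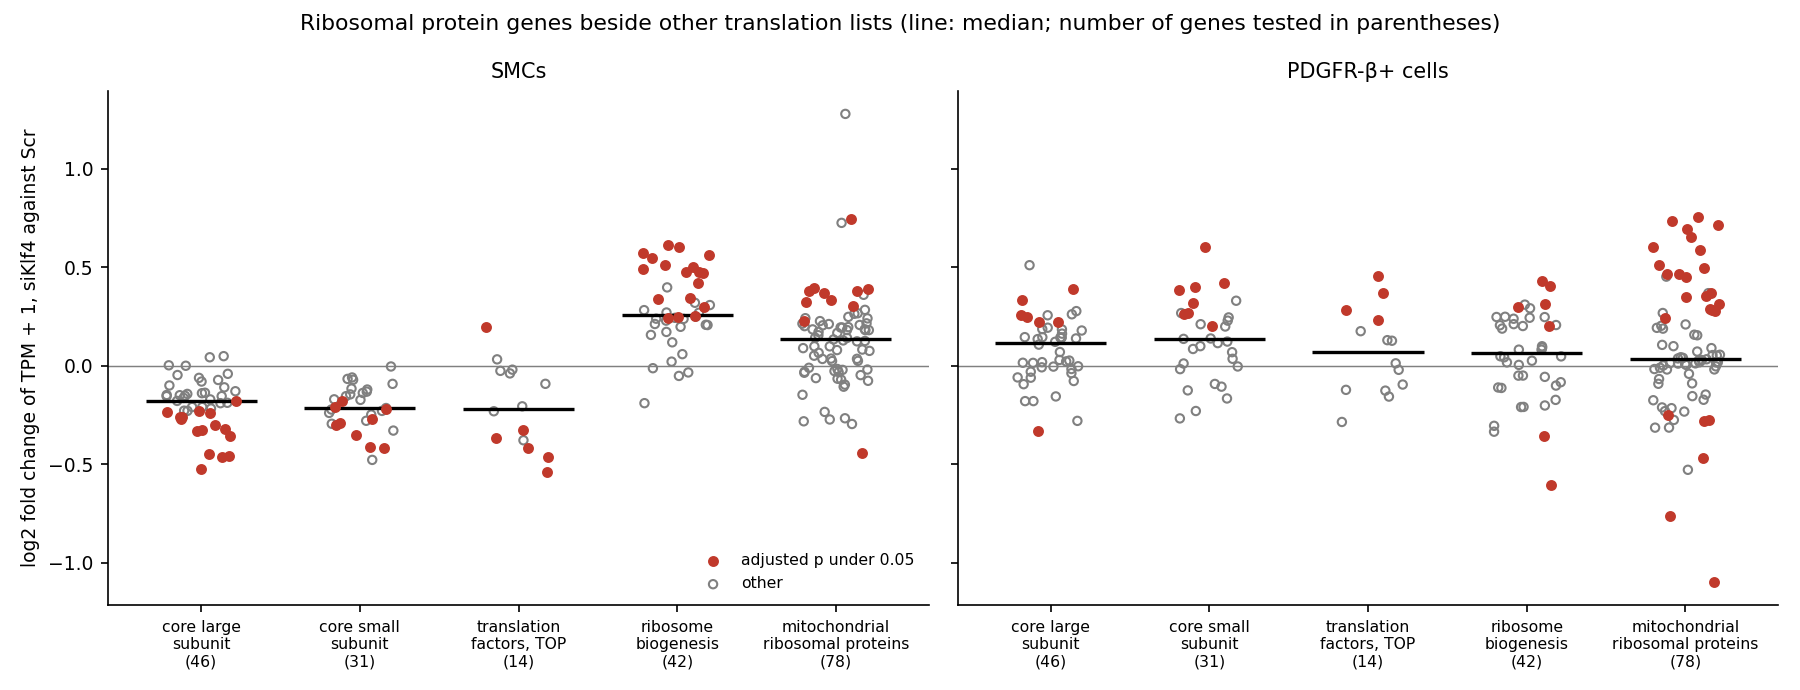
Log2 fold change of TPM + 1, siKlf4 against Scr, for core members by subunit and for 3 other gene lists in both cell types. Each point is a gene, red where the adjusted p is under 0.05, and the line is the median. In SMCs the core members and the translation factors lie mostly below 0 and the ribosome biogenesis genes mostly above it.

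The members lie on 19 chromosomes. In 30 of them, all core, the annotation places snoRNA genes on the same strand, 58 in all. These small RNAs guide the modification of ribosomal RNA and are cut from the introns of their hosts. In SMCs 9 of the 30 hosts and 16 of the other 47 core members were lower, beside 12.9% of all genes. Their medians were -0.17 and -0.21. In PDGFR-β+ cells 6 of the hosts and 8 of the others were higher, beside 25.3% of all genes. Their medians were 0.10 and 0.12. In the 250 bases before the annotated start, searched on both strands, GGAAG, the core of sites for ETS factors, was found in 82.5% of the 57 core members with a sequence and in 63.7% of all genes. CACCC, a sequence of the kind that KLF factors bind, was found in 54.4% and 51.3%. Of the 31 core members with CACCC 9 were lower in SMCs, and of the 26 without it 12, beside 12.9% of all genes. Of the 36 core members with the pyrimidine run 13 were lower in SMCs, and of the 21 without it 8. CACGTG, the E-box that Myc binds, was found in 7.02% and 5.93%, and AAGATGG, a YY1-type motif, in 5.26% and 4.50%. TATAAA, searched on the strand of the gene, was found in 1.75% of the core members and 8.12% of all genes. The reverse complement of GGAAG can overlap the pyrimidine run, as it does in the window of Rps24. That copy reaches past the annotated start, outside the bases searched, and was not counted. A match of letters is a description and no evidence of binding.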

How the data were processed

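Per the labels and the study's methods, mRNA was selected by oligo-dT and sequenced with strand kept. The deposited values are TPM, in 1 table per cell type with a column per library. To make them, the authors trimmed reads, used HISAT2 with mm10 and GENCODE annotation, and quantified with StringTie and ballgown. The GENCODE release and the versions of HISAT2 and StringTie are not given in the sources used here. The authors tested counts with DESeq2, and those counts were not analysed here. TPM holds no sequencing depth, so precision rests on the 3 libraries per group. The study speaks of independent experiments, but the labels do not name separate animals or donors, and p-values measure the spread between these libraries, which may be technical. Levels set across the 2 tables were not tested.

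Values were analysed as log2(TPM + 1) with limma 3.58.1 in R 4.3.3 (eBayes with a trend), keeping genes that averaged 1 TPM or more in the 6 libraries of a cell type. Fold changes are on that scale, which understates those of low genes. Tests were two-sided and adjusted by Benjamini-Hochberg over all genes tested, with a threshold of 0.05. Effects in the cell types were compared by an interaction term over 12 libraries. A further fit subtracted the median member of each library. The procedure was tested on simulated data. Sums and ratios were described without a test. Positions are those of GENCODE M21 (GRCm38), in which all 88 members were found by identifier, 74 with the same version. Promoters are from RefSeq (GRCm38.p6).

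The members and lists were chosen with earlier results of these data known. Named members were the 5 largest changes past the threshold in each direction and comparison, the 5 highest and 5 lowest by level, every paralogue or other name with its core partner, Rps27a, the stalk genes, Rpsa, Rpl5, Rpl11, Rps6 and Rps4x. From each list up to 2 rises and 2 falls could be named. Some genes that this rule takes are not reported here. Alternatives were a pseudocount of 0.1, no filter, a minimum of 5 TPM, other scalings, no trend, joint or separate fits, a replicate block, the numbered SMC libraries alone, a term for the naming, core members alone, and leaving out each library. Leaving Gm23935 out of the total, and the block in the fit against the median member, were added after seeing the data.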

Additional observations from a re-analysis of the deposited data

Results flagged for a closer look

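By the interaction term of limma, siKlf4 acted unequally in SMCs and PDGFR-β+ cells on 18 named members (adjusted p under 0.05). The values are the log2 fold change in SMCs minus that in PDGFR-β+ cells. Rpl7l1 had the only positive difference, 1.09. Those of small subunit members were -1.01 for Rps24, -0.77 for Rps27, -0.57 for Rps12, -0.55 for Rps19, -0.50 for Rps9, -0.45 for Rps27a, -0.37 for Rps4x and -0.35 for Rps6. Those of large subunit members were -0.55 for Rpl22, -0.54 for Rpl26, -0.49 for Rpl17, -0.45 for Rpl3, -0.45 for Rpl39, -0.43 for Rplp0, -0.42 for Rpl37, -0.36 for Rpl10a and -0.32 for Rpl23a. The difference of Rpl23a was lost without any 1 of 8 of the 12 libraries (adjusted p up to 0.098) and in 5 of 13 other alternatives. Those of Rplp0 and Rps4x were lost without a filter on low values, and that of Rplp0 also with the replicate block.

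In 5 sums and ratios every siKlf4 library lay on one side of the Scr libraries in SMCs and on the other side in PDGFR-β+ cells, but this difference was not tested. In SMCs with siKlf4 the small subunit share of TPM was lower (-0.455 percentage points), as were the median core member (-92.4 TPM) and the member share without mitochondrially encoded genes and Gm42418 (-1.06 percentage points), all higher in PDGFR-β+ cells. The paralogue and other names made up more of the member TPM in SMCs (0.105 percentage points) and less in PDGFR-β+ cells. So did Rpl7l1 of its sum with Rpl7 (2.19 percentage points in SMCs).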

How the results depend on the processing

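The number of members lower in SMCs, 26, was 10 without a filter, 14 with quantile normalization, 14 without a trend, 50 with the naming term and 40 in the numbered libraries alone, and 7 to 30 without single libraries. In PDGFR-β+ cells the 15 higher became 5 without a filter, 6 with median-ratio scaling, 33 with quantile normalization and 8 without a trend, and 5 to 26 without single libraries. The 3 lower became 10 with median-ratio scaling and 5 in the joint fit, and 2 to 5 without single libraries. The members with a lower effect in SMCs than in PDGFR-β+ cells numbered 28 to 43, and those with a higher one 1 or 2, without single libraries. Against the median member, the numbers in SMCs were 1 higher and 2 lower without a trend, 6 higher with the sum as the reference, 1 higher with the replicate block, and 1 to 2 higher and 0 to 4 lower without single libraries. In PDGFR-β+ cells they were 4 to 8 higher and 4 to 8 lower without single libraries, and 4 to 6 higher and 6 to 10 lower in the other alternatives. The change of the SMC share, -13.28%, was -10.62% for the median of the members and -10.16% without Gm42418 and Gm23935 in the total, and -13.8% to -12.97% without single libraries. That of the PDGFR-β+ share was 4.57% to 11.41% without single libraries. The change of the SMC subunit ratio, 0.637%, was -4.34% by medians, with overlap in both, and 0.236% to 1.23% without single libraries, and that of the PDGFR-β+ ratio was -4.215% to -1.99%. Unless stated, the cause of these shifts was not tested.

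With the replicate number as a block, 16 members were higher and 3 lower in PDGFR-β+ cells. Among the 4 numbered SMC libraries 33 were lower and 1 higher with it, and the effect was lower in SMCs for 34 and higher for 1. The numbers were not taken as pairs in PDGFR-β+ cells: deviations from the group means correlated at 0.0732, -0.0158 and 0.0043 between PDGFR-β+ libraries of the same number, and not each library correlated best with its own number. The SMC pairs of numbers 2 and 3 gave 0.185 and 0.199 and the libraries without a number 0.361, and each SMC library correlated best with its match. This is a hint from the data, not the design, since 2 of these libraries carry no number.

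Of 1025 alternative values of the 49 named results past the threshold, 902 stayed past it in the same direction, 123 kept the direction only, and none reversed. TPM gives no depth, so a small change of a low member cannot be told from counting error.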
